A study of Mus musculus with 14 samples.

Results

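The B cell and plasma cell genes are 31 genes of B lymphocytes and antibody-secreting plasma cells, here measured in mouse colon RNA. Members were found through the RefSeq accession that the scanner files give each probe, which was matched to a mouse gene symbol, and each gene was represented by its probe with the highest mean signal. All 31 members are on the array, among 19096 genes that could be named in this way. They were sorted by role into the B cell receptor complex and its signalling (6 genes), surface coreceptors and inhibitors (9), transcription factors (7), receptors for the survival factors BAFF and APRIL (3), the follicle homing receptor Cxcr5 (1), and plasma cell secretion and antibody transport (5).

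The study asked how the colon responds to dexamethasone (DEX), a synthetic glucocorticoid, when the intestinal epithelium lacks the glucocorticoid receptor (GR), which Nr3c1 encodes. Colon RNA of 14 male C57BL/6 mice was hybridized to one-colour Agilent arrays, with 1 mouse on each array. Flox mice carry GR fl/fl alleles and served as the controls. GR iKO mice carry the same alleles with Villin-cre, which is active in the intestinal epithelium, so the lymphocytes, stroma and muscle in the same RNA were not targeted.

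Of the Flox mice 4 received PBS and 3 received DEX, and of the GR iKO mice 3 received PBS and 4 received DEX. All were adrenalectomized, which removes the main source of their own glucocorticoids, and were treated 2 weeks later. Their age is labelled as 8 to 10 weeks. The paper gives another age. DEX was given at 1 mg/kg and the tissue was taken 6 h after the injection. One slide held each group, so an effect of the slide and an effect of the group cannot be told apart in any comparison. The number of arrays limits the precision. Their 75th percentile of signal lay between 566.2 and 774.1 intensity units, and 28284 to 30504 probes were well above background on each array.

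Signals are given as log2 of the background-subtracted intensity relative to the 75th percentile of the same array, so a value of 0 lies at that percentile and a difference of 1 is a 2-fold change. Values of a group are listed by replicate number, which skips 3 in the Flox DEX group and 1 in the GR iKO PBS group. Nr3c1 read 1.395, 1.48, 1.46 and 1.28 under PBS and 1.13, 1.13 and 1.34 under DEX in Flox mice, and 0.79, 0.44 and 0.28 under PBS and -0.14, -0.08, 0.04 and 0.00 under DEX in GR iKO mice. It was lower in every GR iKO mouse than in any Flox mouse, and under DEX it was lower in GR iKO mice with a log2 difference of -1.24 (SE 0.12, limma adjusted p = 0.00319). Sgk1 and Fkbp5, which glucocorticoids induce, rose with DEX in Flox mice by 3.22 and 3.65 (limma adjusted p = 0.000828 and 0.000686), against 0.66 and 0.94 in GR iKO mice (adjusted p = 0.201 and 0.0892). Tsc22d3, another induced gene, rose in each genotype, by 1.91 and 1.61 (adjusted p = 0.000686 and 0.000865). Every array had all 10 epithelial markers well above background. So were 24 of the members, and the other 7 members were on 4 to 13 arrays. The accessions of Ighm, Igha, Ighg1, Igkc, Iglc1 and Iglv1 were not matched, so the immunoglobulin chains were not analysed here.

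B cells recognise antigen with a membrane immunoglobulin that signals through Cd79a and Cd79b, and they gather in follicles that Cxcr5 guides them to. Activated B cells can become plasma cells, which switch off much of the B cell programme under Prdm1 and Irf4, keep the APRIL receptor Tnfrsf17, and secrete antibody with the help of Jchain and Mzb1. In the colon, B cells lie mainly in lymphoid follicles and plasma cells in the lamina propria, where epithelial Pigr carries polymeric immunoglobulin A into the lumen. In RNA of whole tissue, fewer cells of a type and less RNA of a gene per cell cannot be told apart.

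Promoters are shown for Irf4, Bank1, Cd22 and Cd72, the 4 members with a called change under DEX. Each run is the 250 bases before the transcription start, 5′ to 3′ on the strand of the gene, from RefSeq annotation of GRCm38.p6. Capitals mark the PU.1 core GAGGAA or its complement TTCCTC in Irf4 and Cd72 and the EBF palindrome TCCCNNGGGA in Cd22, and Bank1 holds none of the motifs searched. The runs are chr13:30748983-30749232 (plus strand) for Irf4, chr3:136326067-136326316 (minus strand) for Bank1, chr7:30879029-30879278 (minus strand) for Cd22 and chr4:43454627-43454876 (minus strand) for Cd72.
Irf4: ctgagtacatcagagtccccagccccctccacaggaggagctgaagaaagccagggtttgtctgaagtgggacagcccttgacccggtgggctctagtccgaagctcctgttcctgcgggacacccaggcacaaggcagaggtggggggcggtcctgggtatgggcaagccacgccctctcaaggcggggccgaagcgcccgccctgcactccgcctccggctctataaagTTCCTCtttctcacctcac
Bank1: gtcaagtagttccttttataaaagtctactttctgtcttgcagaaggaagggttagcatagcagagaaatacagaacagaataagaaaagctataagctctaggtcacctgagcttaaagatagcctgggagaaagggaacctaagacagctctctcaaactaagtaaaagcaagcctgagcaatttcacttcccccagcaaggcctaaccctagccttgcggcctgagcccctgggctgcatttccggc
Cd22: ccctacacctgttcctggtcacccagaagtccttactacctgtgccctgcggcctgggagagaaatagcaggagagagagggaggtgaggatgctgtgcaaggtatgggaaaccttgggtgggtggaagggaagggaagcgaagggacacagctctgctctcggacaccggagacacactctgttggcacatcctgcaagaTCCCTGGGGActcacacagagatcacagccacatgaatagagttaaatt
Cd72: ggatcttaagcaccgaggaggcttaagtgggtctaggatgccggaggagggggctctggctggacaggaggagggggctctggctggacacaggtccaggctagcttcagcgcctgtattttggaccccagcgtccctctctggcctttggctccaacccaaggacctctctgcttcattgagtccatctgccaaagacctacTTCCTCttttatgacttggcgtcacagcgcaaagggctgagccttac

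The motif of Irf4 lies 19 to 14 bases before the start, that of Cd72 47 to 42 bases and that of Cd22 49 to 40 bases. Promoters were found for 25 of the 31 members, 29 promoters in all, and the 6 members without an entry were Cd79b, Blk, Ms4a1, Cd40, Cxcr5 and Mzb1. Both strands were searched, in windows of 250 bases. The PU.1 core was in 10 of the 29 member promoters, those of Cd37, Cd72, Cd79a, Derl3, Ebf1, Fcrla, Irf4, Prdm1, Sdc1 and Tnfrsf17, and in 23.3% of all 32851 promoters. The octamer ATGCAAAT, which the partner of Pou2af1 binds, was in that of Blnk and in 1.6% of all promoters. The EBF palindrome was in that of Cd22 and in 0.779% of all promoters. The palindrome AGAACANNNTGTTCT, a form of the glucocorticoid response element, was in 0 of the 29 member promoters and in 3 of all promoters (0.00913%). A match describes the letters of these windows and no binding was measured.

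On 3 arrays the members' signals stood apart, and these are named before the comparisons because several values rest on them. The mean signal of the 31 members was -1.85, -1.18, -1.50 and -1.27 under PBS and -2.36, -2.15 and -2.27 under DEX in Flox mice, and -1.82, -0.74 and -0.11 under PBS and -0.97, -1.95, -1.76 and -1.97 under DEX in GR iKO mice. It was highest in GR iKO PBS mouse 4, then in GR iKO PBS mouse 3 and GR iKO DEX mouse 1, while GR iKO PBS mouse 2 lay near the Flox mice given PBS. Of the 31 members, 19 had their highest value in GR iKO PBS mouse 4. In 16 of these GR iKO PBS mouse 3 came next, and in 10 of the 16 GR iKO DEX mouse 1 followed: Cd79b, Blk, Cd22, Cd37, Ms4a1, Fcer2a, Fcrla, Spib, Tnfrsf13c and Cxcr5. At the low end, 21 members had their lowest value in a Flox mouse given DEX. The same orders were not counted over all named genes, so these counts describe the members alone.

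**Figure D1:**
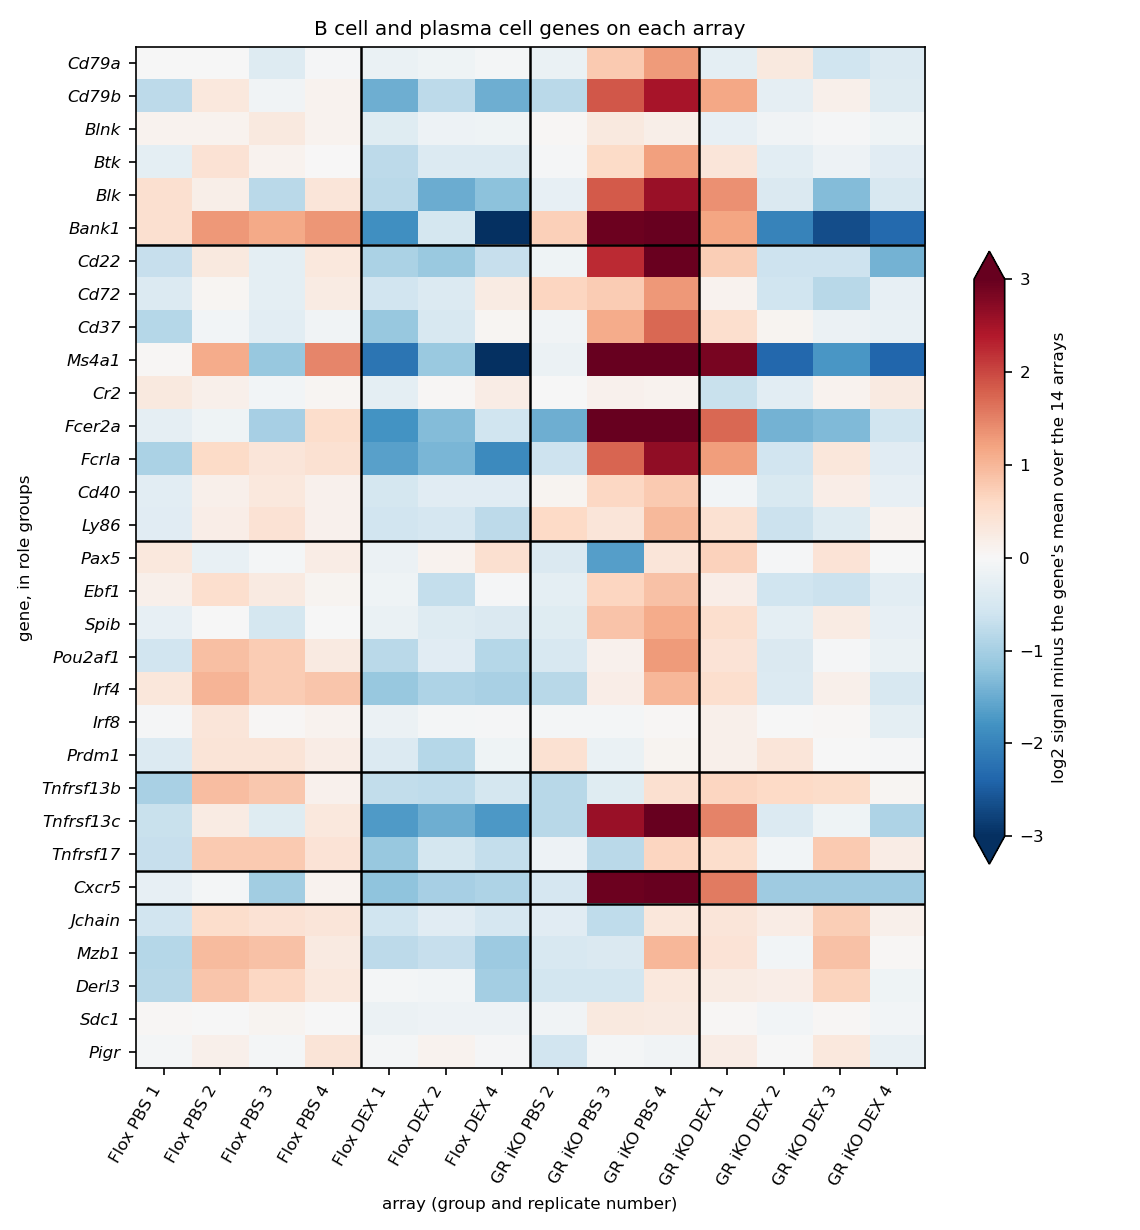
Signal of the 31 members on the 14 arrays, as log2 signal minus the mean of the gene over the arrays, with colours clipped at 3 in either direction; horizontal lines part the role groups and vertical lines the 4 groups of mice. GR iKO PBS mice 3 and 4 and GR iKO DEX mouse 1 are red for Cd79b, Blk, Ms4a1, Fcer2a, Fcrla, Tnfrsf13c and Cxcr5, and Jchain and Derl3 near the bottom follow another order of mice.

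Among the B cell receptor genes, Bank1, an adaptor that links the receptor to calcium signalling, had the widest range over the arrays and Blnk, the adaptor that joins the receptor's kinases to their targets, the narrowest. Bank1 read -4.59, -3.78, -3.95 and -3.77 under PBS and -6.92, -5.62 and -8.25 under DEX in Flox mice, and -4.36, -2.15 and -1.65 under PBS and -3.90, -7.08, -7.74 and -7.43 under DEX in GR iKO mice. It was high in every mouse given PBS and in GR iKO DEX mouse 1 and low in the other mice given DEX, so its Flox groups did not overlap and its GR iKO groups overlapped through that 1 mouse. It was well above background on 8 of 14 arrays, on 0 of the 3 Flox DEX arrays and on 1 of the 4 GR iKO DEX arrays. Blnk read 6.04, 6.04, 6.22 and 6.04 under PBS and 5.57, 5.77 and 5.80 under DEX in Flox mice, and 5.97, 6.22 and 6.09 under PBS and 5.67, 5.82, 5.90 and 5.80 under DEX in GR iKO mice. Within each genotype every mouse given DEX was below every mouse given PBS. The group means of Blnk, from 5.72 to 6.09, were far above those of Cd79b, from -1.03 to 1.375. Which cells gave the signal of Blnk was not tested.

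Cd79b, a signalling chain of the receptor chosen here after its values were seen, read -0.57, 0.52, 0.11 and 0.31 under PBS and -1.26, -0.58 and -1.25 under DEX in Flox mice, and -0.61, 2.06 and 2.67 under PBS and 1.36, -0.06, 0.36 and -0.17 under DEX in GR iKO mice. GR iKO PBS mice 3 and 4 were highest and Flox DEX mice 1 and 4 lowest. Cd79a, the other signalling chain, ranged from -4.87 to -2.99, the kinase Btk from -4.24 to -2.23, and the kinase Blk from -7.65 to -3.56. Blk was well above background on 1 Flox PBS, 0 Flox DEX, 2 GR iKO PBS and 1 GR iKO DEX arrays.

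Ms4a1, which encodes the B cell surface protein CD20, had the widest range of the coreceptors and of all 31 members. It read -3.02, -1.94, -4.20 and -1.59 under PBS and -5.24, -4.17 and -6.07 under DEX in Flox mice, and -3.22, 0.80 and 1.69 under PBS and -0.21, -5.42, -4.81 and -5.43 under DEX in GR iKO mice. GR iKO PBS mice 3 and 4 and GR iKO DEX mouse 1 were above every other mouse, and both pairs of PBS and DEX groups overlapped. Cr2, a complement receptor, had the narrowest range of the coreceptors and read -3.86, -3.99, -4.23 and -4.09 under PBS and -4.43, -4.10 and -3.93 under DEX in Flox mice, and -4.15, -4.02 and -4.04 under PBS and -4.82, -4.45, -4.03 and -3.86 under DEX in GR iKO mice. Its groups overlapped in every comparison. A second probe of Cr2, well above background on 6 of 14 arrays, had changes with DEX of -1.17 in Flox and -3.04 in GR iKO mice (limma adjusted p = 0.577 and 0.0649), where the probe used had -0.11 and -0.22.

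Cd22, an inhibitory receptor that dampens receptor signalling, read -4.45, -3.46, -4.05 and -3.43 under PBS and -4.69, -4.87 and -4.44 under DEX in Flox mice, and -3.87, -1.51 and -0.78 under PBS and -3.02, -4.36, -4.37 and -5.17 under DEX in GR iKO mice. GR iKO PBS mice 3 and 4 were above the rest, and GR iKO PBS mouse 2 lay within the range of the Flox mice given PBS. Cd72, another inhibitory receptor, read -1.78, -1.31, -1.66 and -1.13 under PBS and -1.93, -1.78 and -1.11 under DEX in Flox mice, and -0.72, -0.59 and -0.05 under PBS and -1.27, -1.97, -2.19 and -1.62 under DEX in GR iKO mice. All 3 GR iKO mice given PBS were above every other mouse. Of the other coreceptors, the tetraspanin Cd37 ranged from -5.13 to -2.28, the low-affinity IgE receptor Fcer2a from -6.98 to -1.34, the intracellular Fc receptor-like protein Fcrla from -5.48 to -0.91, the receptor for T cell help Cd40 from -3.72 to -2.41, and Ly86, the partner of the Toll-like receptor homologue CD180, from -0.29 to 1.47.

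Among the transcription factors, Irf4 is needed both for germinal centre B cells and for plasma cells. It read -3.14, -2.46, -2.72 and -2.63 under PBS and -4.62, -4.39 and -4.45 under DEX in Flox mice, and -4.31, -3.27 and -2.49 under PBS and -2.98, -3.89, -3.33 and -3.96 under DEX in GR iKO mice. All 3 Flox mice given DEX were below every other mouse, while the GR iKO groups overlapped, with GR iKO PBS mouse 2 the lowest of the 7 GR iKO mice. Pax5, which keeps B cell identity, had the widest range of this group and read -4.55, -5.10, -4.92 and -4.65 under PBS and -5.04, -4.77 and -4.39 under DEX in Flox mice, and -5.32, -6.51 and -4.51 under PBS and -4.18, -4.90, -4.46 and -4.88 under DEX in GR iKO mice. Its low value was GR iKO PBS mouse 3, and it was dim, well above background on 12 of 14 arrays. Irf8, a factor of B cells and of myeloid cells, had the narrowest range and read 3.04, 3.44, 3.11 and 3.18 under PBS and 2.90, 3.02 and 3.05 under DEX in Flox mice, and 3.03, 3.03 and 3.11 under PBS and 3.24, 3.08, 3.12 and 2.79 under DEX in GR iKO mice. The groups overlapped in every comparison. A second probe of Irf8, well above background on all 14 arrays, had changes with DEX of -0.385 in Flox and -0.34 in GR iKO mice (limma adjusted p = 0.141 and 0.117). The probe used had -0.205 and 0.003. Ebf1, which specifies the B lineage, ranged from -5.77 to -4.18, the Ets factor Spib from -0.90 to 0.73, the coactivator Pou2af1 from 0.66 to 2.80, and the plasma cell factor Prdm1 from -3.39 to -2.06.

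The receptors for BAFF and APRIL differed in which mice were high. Tnfrsf13c, the BAFF receptor of follicular B cells, read -3.95, -3.04, -3.63 and -2.96 under PBS and -4.99, -4.74 and -5.01 under DEX in Flox mice, and -4.12, -0.68 and 0.30 under PBS and -1.80, -3.69, -3.41 and -4.20 under DEX in GR iKO mice. It was highest in GR iKO PBS mice 3 and 4 and lowest in the Flox mice given DEX. Tnfrsf13b, a receptor for both factors, had the narrowest range of the 3 and read -5.66, -3.74, -3.86 and -4.55 under PBS and -5.41, -5.43 and -5.21 under DEX in Flox mice, and -5.52, -5.03 and -4.19 under PBS and -4.04, -4.07, -4.13 and -4.61 under DEX in GR iKO mice. It was low in Flox PBS mouse 1, in all Flox mice given DEX and in GR iKO PBS mice 2 and 3. Tnfrsf17, the APRIL receptor of plasma cells, ranged from -1.60 to 0.32. Cxcr5, which binds Cxcl13 and draws B cells into follicles, read -3.75, -3.56, -4.54 and -3.40 under PBS and -4.71, -4.49 and -4.41 under DEX in Flox mice, and -3.997, -0.56 and 0.08 under PBS and -1.93, -4.57, -4.57 and -4.55 under DEX in GR iKO mice. GR iKO PBS mice 3 and 4 were highest, GR iKO DEX mouse 1 came next, and the other 3 GR iKO mice given DEX lay close to the Flox mice given DEX.

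Mzb1, a chaperone of antibody assembly, had the widest range of the plasma cell genes and read 0.15, 1.95, 1.89 and 1.27 under PBS and 0.23, 0.32 and -0.08 under DEX in Flox mice, and 0.53, 0.56 and 2.00 under PBS and 1.42, 0.93, 1.88 and 1.03 under DEX in GR iKO mice. It was low in Flox PBS mouse 1, in all Flox mice given DEX and in GR iKO PBS mice 2 and 3, and high in the other Flox mice given PBS, in GR iKO PBS mouse 4 and in the GR iKO mice given DEX. Jchain, which joins polymeric immunoglobulin and was chosen here after its values were seen, read 5.27, 6.38, 6.26 and 6.20 under PBS and 5.24, 5.49 and 5.34 under DEX in Flox mice, and 5.49, 5.07 and 6.18 under PBS and 6.21, 6.06, 6.57 and 5.98 under DEX in GR iKO mice. The same mice were low, so that the Flox DEX and GR iKO DEX groups did not overlap. Sdc1, a plasma cell surface proteoglycan that epithelial cells also make, had the narrowest range and read 3.16, 3.12, 3.21 and 3.13 under PBS and 2.95, 2.99 and 2.97 under DEX in Flox mice, and 3.03, 3.43 and 3.41 under PBS and 3.16, 3.05, 3.18 and 3.06 under DEX in GR iKO mice. Derl3, which takes part in disposal of misfolded secretory proteins, ranged from -1.10 to 0.75, and Pigr, the epithelial transporter of polymeric immunoglobulin, from 5.34 to 6.28.

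**Figure D2:**
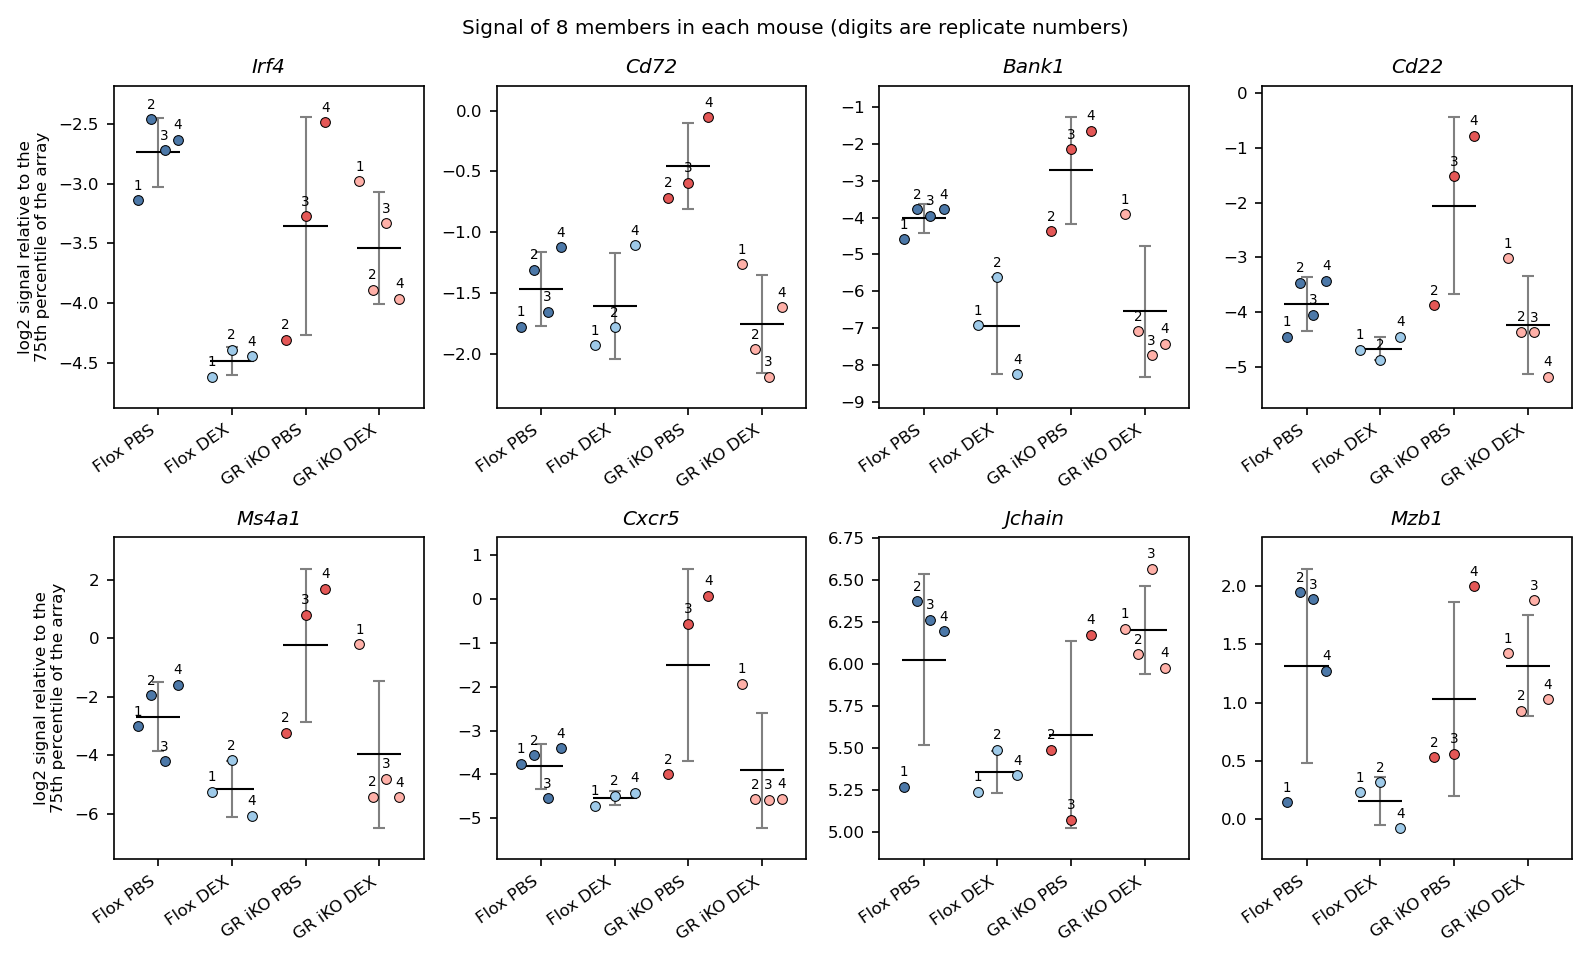
Signal of Irf4, Cd72, Bank1, Cd22, Ms4a1, Cxcr5, Jchain and Mzb1 in each mouse, as log2 over the array's 75th percentile. Points are mice with their replicate number, the line is the group mean and the bar is 1 SD; in the Flox DEX group Irf4 lies between -4.62 and -4.39, below every other mouse.

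DEX in Flox mice shows the response with GR intact. Irf4 fell by 1.75, from a mean of -2.74 (SD 0.29, 4 mice) to -4.48 (SD 0.12, 3 mice), a 3.36-fold decrease. It was lower in 3 of 3 mice given DEX (SE 0.36, limma adjusted p = 0.0265). With normexp correction its log2 change was -0.13 (limma adjusted p = 0.804) and it was not called, in a fit that called 0.241% of all named genes in either direction against 2.16% in the main fit. A gene was called when its limma p, adjusted over all probes, was under 0.05 and its change at least 2-fold, and Irf4 was the 1 member called lower, or 3.23% of the members against 1.17% of all named genes. No member was called higher (0 of 31, against 0.995% of genes). At an unadjusted limma p under 0.05 there were 11 members (35.5%), Blnk, Bank1, Fcrla, Cd40, Ly86, Pou2af1, Irf4, Prdm1, Tnfrsf17, Jchain and Mzb1, against 21.6% of all named genes. With Student's t-test, which the study's methods give for data of 2 groups and not for its arrays, 7 members (22.6%) had at least 2-fold changes at an unadjusted p under 0.05, against 4.54% of all named genes, and 0 after Benjamini-Hochberg adjustment.

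The Irf4 call changed with single arrays, while its log2 change lay between -1.88 and -1.65 over the 14 fits with 1 array left out. It was lost without any 1 of the 3 Flox DEX arrays (Irf4 -4.62, -4.39 and -4.45) or without Flox PBS mouse 2, 3 or 4 (-2.46, -2.72 and -2.63), which left 0 members called where the share of all named genes in these 6 fits, in either direction, was 0.754%, 1.27%, 1.84%, 1.58%, 1.26% and 1.42%. Without Flox PBS mouse 1, in which Irf4 read -3.14 and Mzb1 0.15, the lowest of the Flox mice given PBS, 4 members (12.9%, against 2.67% of all named genes in that fit) were called: Irf4, Tnfrsf13b, Tnfrsf17 and Mzb1. Without GR iKO DEX mouse 1 (Bank1 -3.90), which enters the fit through the pooled spread, 2 were called (6.45%, against 2.14%), Irf4 and Bank1.

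All but 1 of the 31 members had a negative log2 change with DEX in Flox mice, with a median of -0.67 against 0.04 over all named genes. With the authors' log2 table and with quantile normalization, of the whole array or of each part of its rows, all 31 were negative, while after normexp background correction 14 members were negative and 17 positive, with a median of 0.14 where all genes had a median of 0.23. On the main scale, for 12 members (38.7%) every Flox DEX mouse was below every Flox PBS mouse, against 10.8% of all named genes, and for 0 every one was above, against 13.1%. They were Cd79b, Blnk, Btk, Blk, Bank1, Fcrla, Cd40, Ly86, Ebf1, Irf4, Tnfrsf13c and Sdc1.

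Role groups had negative medians on the main scale: -0.86 for the B cell receptor genes (6 of 6 negative), -0.73 for the coreceptors (9 of 9), -0.54 for the transcription factors (6 of 7), -1.11 for the BAFF and APRIL receptors (3 of 3) and -0.62 for plasma cell secretion (5 of 5). After normexp correction the medians of the B cell receptor genes, the coreceptors and the BAFF and APRIL receptors became 0.31, 0.34 and 0.14, while all 5 secretion genes and Tnfrsf17 were still negative. Bank1 was at least 3.62-fold lower with DEX, a lower bound because no Flox DEX array had it well above background (limma adjusted p = 0.116), and normexp correction gave a log2 change of 0.24. Ms4a1 had a log2 change of -2.47 (SE 1.38, adjusted p = 0.365), Fcrla of -1.75 (SE 0.68, adjusted p = 0.188) and Mzb1 of -1.16 (SE 0.46, adjusted p = 0.19). After normexp correction the changes of Ms4a1, Fcrla and Mzb1 were -0.3, 0.13 and -1.11.

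DEX in GR iKO mice shows the response of a colon whose epithelium lacks the receptor. Cd72, Bank1 and Cd22 fell. The mean of Cd72 was -0.46 under PBS (SD 0.35, 3 mice) and -1.76 under DEX (SD 0.41, 4 mice), a 2.47-fold decrease (log2 change -1.31, SE 0.27, limma adjusted p = 0.0119), with 4 of 4 mice given DEX below all 3 given PBS. Bank1 changed by -3.82 (SE 0.93, limma adjusted p = 0.0228), a change whose size is uncertain because it was well above background on just 1 of the 4 arrays of mice given DEX. Cd22 changed by -2.17 (SE 0.65, 4.51-fold, limma adjusted p = 0.0495). These 3 members are 9.68% of the 31, against 1.1% of all named genes called lower, and 0 members were called higher, against 4.1%. The share of genes depends on the fit: in either direction it was 5.2% here and 2.16% with probes from rows 1 to 354 alone. With the authors' log2 values 5 members (16.1%) were called, against 4.83% of genes in either direction, Cd79a and Ebf1 besides these 3. At an unadjusted limma p under 0.05 there were 13 members (41.9%), against 28.6% of all named genes, and with Student's t-test 2 (6.45%, against 6.25% of genes) at an unadjusted p and 0 (against 1.76%) after Benjamini-Hochberg adjustment.

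Leaving out single arrays changed the calls of Bank1 and Cd22, and not that of Cd72. Without GR iKO PBS mouse 2, in which Cd22 read -3.87 and Ms4a1 -3.22, 14 members (45.2%, against 6.56% of all named genes in that fit) were called: Cd79a, Cd79b, Btk, Blk, Bank1, Cd22, Cd72, Cd37, Ms4a1, Fcer2a, Fcrla, Ebf1, Tnfrsf13c and Cxcr5. Without GR iKO DEX mouse 1 (Ms4a1 -0.21) there were 5 (16.1%, against 4.23%), Bank1, Cd22, Cd72, Ms4a1 and Cxcr5. Without GR iKO PBS mouse 3 (Bank1 -2.15), GR iKO DEX mouse 2 (-7.08) or GR iKO DEX mouse 3 (-7.74) the 1 member called (3.23%) was Cd72, against 4.17%, 3.85% and 3.86% of genes, and without GR iKO PBS mouse 4 (Pax5 -4.51) Cd72 and Pax5 were called (6.45%, against 3.58%), Pax5 as higher. The change of Bank1 lay between -4.70 and -3.28 over these fits. Cd22 was called in 2 of 14 fits with 1 array left out, where its change lay between -3.08 and -1.54. Cd72 was called in 14 of 14, between -1.47 and -1.10. With GR iKO PBS mice 3 and 4 both left out, a setting chosen after seeing the data that leaves 1 mouse in the group, 0 members were called, and Cd72, Bank1 and Cd22 changed by -1.04, -2.17 and -0.36.

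Other probes of the called genes were read too. The other probe of Cd72, well above background on all 14 arrays, changed by -2.13 (limma adjusted p = 0.00665). The other probe of Bank1, well above background on 1 array, had -1.47 (limma adjusted p = 0.0718). That of Cd22 was well above background on 0 arrays, so its -0.92 (limma adjusted p = 0.0511) does not bear on the call. With the probes of each gene averaged, 4 members (12.9%, against 4.81% of all named genes) were called: Bank1, Cd22, Cd72 and Cr2. After normexp correction 0 were called, in a fit that called 0.183% of all named genes in either direction against 5.2% in the main fit, and Cd72, Bank1 and Cd22 had -1.11, -1.05 and -1.20.

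Over all 31 members the median log2 change with DEX in GR iKO mice was -0.64, with 22 negative and 9 positive, against 0.04 over all named genes. The sign of the median was the same under normexp correction, at -0.24 against 0.10 for all genes. The median was -0.35 without GR iKO PBS mouse 4, and 0.09 without GR iKO PBS mice 3 and 4, which leaves 1 mouse in the group. Members of the B cell receptor group had a median of -0.94 (6 of 6 negative) and the coreceptors of -1.09 (9 of 9 negative). After normexp correction the B cell receptor genes lay between -1.05 (Bank1) and -0.20 (Cd79a), with Blk at -0.23 in place of -1.61. The coreceptor Cr2 turned to 0.11. The secretion genes had a median of 0.32 (4 of 5 positive, also with normexp correction). Ms4a1 had a log2 change of -3.72 (SE 1.38, limma adjusted p = 0.101), Cxcr5 of -2.41 (SE 0.88, adjusted p = 0.0951) and Jchain of 0.63 (SE 0.29, adjusted p = 0.187). For Blnk and Cd72 (6.45% of the members) every mouse given DEX was below every mouse given PBS, against 10.1% of all named genes, and for 0 members every one was above, against 15.4%.

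The signal of dim probes shifted with their position on the array. Among dim probes, with a mean signal from -7 to -4, the median change with DEX in GR iKO mice was 0.75 on rows 355 to 532 of the array, against 0.01 on rows 1 to 177 and 0.14 on rows 178 to 354. The probes of 8 members lie on rows 355 to 532, and 4 of them are dim: Bank1, Fcer2a, Pax5 and Tnfrsf13b. With quantile normalization of the whole array Pax5 and Tnfrsf13b had changes of 0.54 and 0.44. With quantile normalization within each of these 3 parts, Pax5 had a change of 0.08 in place of 0.84, Tnfrsf13b of 0.03 in place of 0.70, and Bank1 of -4.21 in place of -3.82. Jchain and Tnfrsf17, which are brighter and lie in the same part, had 0.81 and 0.47 in place of 0.63 and 0.47.

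**Figure D3:**
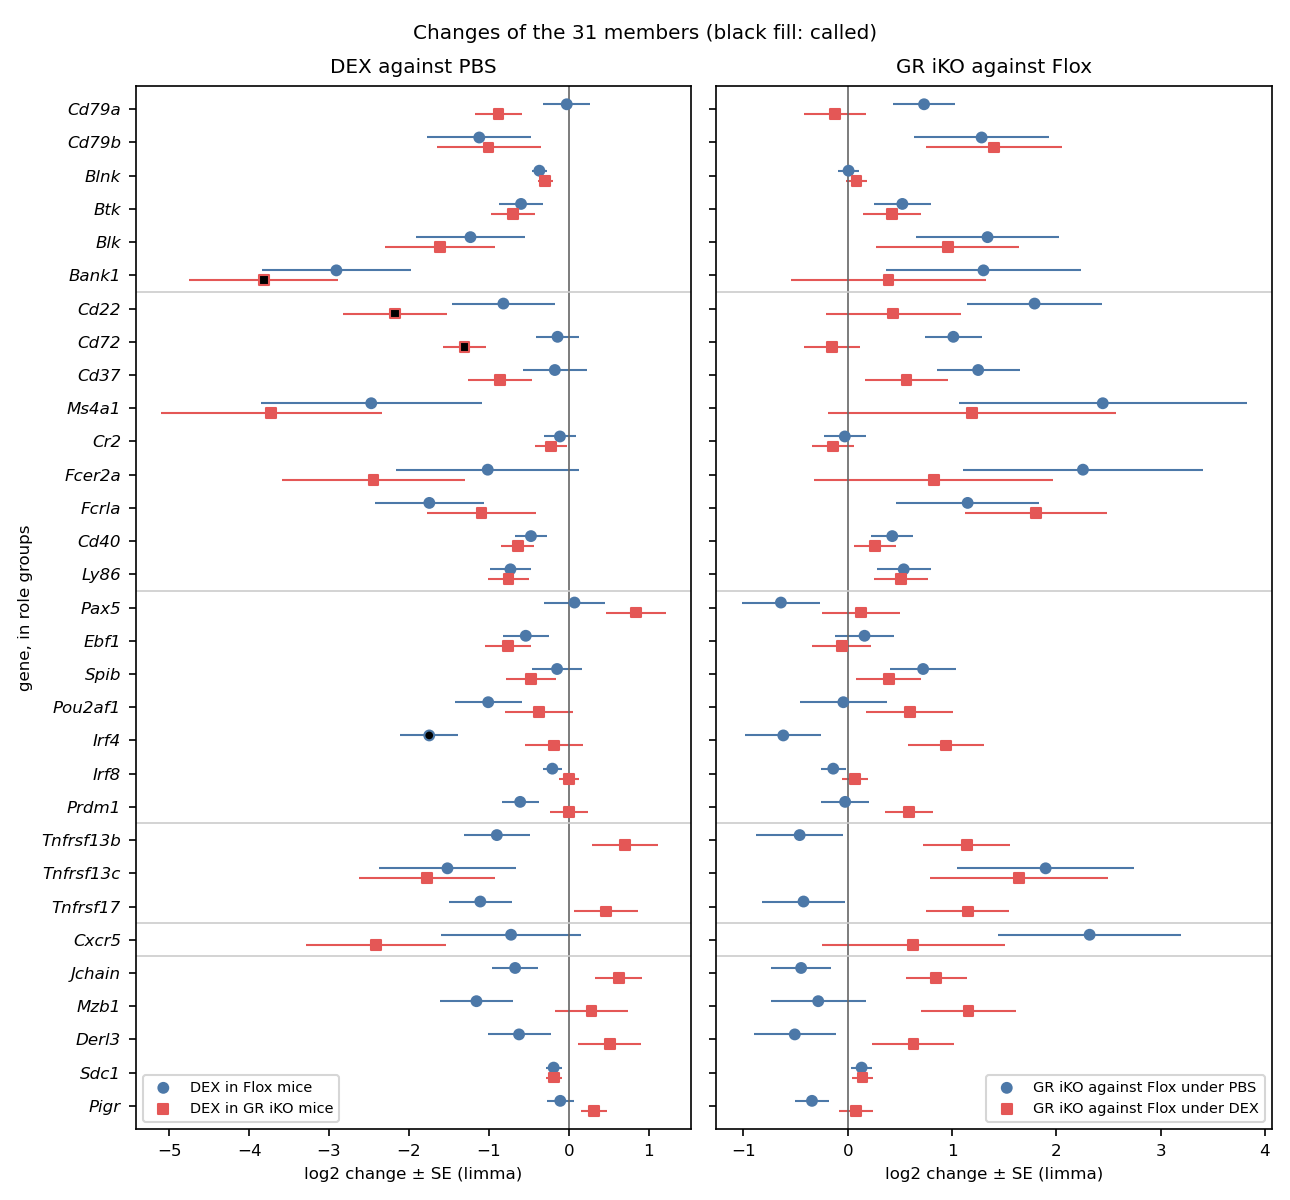
Log2 changes of the 31 members with their SE from the limma fit, with DEX against PBS in each genotype on the left and GR iKO against Flox mice under each treatment on the right; black fill marks the 4 called values. Jchain, Mzb1, Derl3, Pigr, Tnfrsf17 and Tnfrsf13b lie left of 0 in Flox mice and right of 0 in GR iKO mice (Tnfrsf13b right of 0 in both after normexp correction), Sdc1 lies left of 0 in both and Prdm1 near 0 in GR iKO mice, and most B cell genes lie left of 0 in both on the main scale but not in Flox mice after normexp correction.

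Under PBS, GR iKO against Flox mice compares the genotypes with little glucocorticoid present. No member was called by limma in either direction, 0 lower against 0.0628% of all named genes and 0 higher against 0.0681%. At an unadjusted limma p under 0.05 there were 7 members (22.6%), against 7.72% of genes, with Cd72, Cd37, Cd22, Cxcr5, Cd79a, Spib and Tnfrsf13c all higher in GR iKO mice. By Student's t-test 1 member, Cd72, passed at an unadjusted p (3.23%, against 1.67% of genes) and 0 after Benjamini-Hochberg adjustment. Cd72 had a log2 difference of 1.01 (SE 0.27, limma adjusted p = 0.232) with 3 of 3 GR iKO mice above all 4 Flox mice, the 1 member (3.23%) without overlap, against 3.13% of genes higher, and 0 members were below without overlap, against 3.86%.

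The members' median log2 difference was 0.43 (12 negative, 19 positive; 0.20 after normexp correction), against 0.00 over all named genes. It was 1.01 for the B cell receptor genes (6 of 6 positive) and 1.15 for the coreceptors (8 of 9 positive). The plasma cell secretion genes had -0.34 (4 of 5 negative). Cxcr5 differed by 2.32 (SE 0.88, limma adjusted p = 0.495), Ms4a1 by 2.45 (SE 1.38, adjusted p = 0.751) and Cd22 by 1.79 (SE 0.65, adjusted p = 0.455). The members' median was 0.21 without GR iKO PBS mouse 4, in which most B cell members were highest. It was -0.34 without GR iKO PBS mice 3 and 4, which leaves 1 mouse in the group. Over the 29 members that passed a filter on dim probes it was 0.16. Without GR iKO PBS mouse 2 (Cd22 -3.87) 3 members (9.68%) were called higher, Cd22, Tnfrsf13c and Cxcr5, where 0.508% of all named genes were called in either direction.

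Under DEX, GR iKO against Flox mice asks which genes differ when the ligand is present and the epithelial receptor is not. The plasma cell members Jchain, Mzb1 and Tnfrsf17 read higher in every GR iKO mouse than in any Flox mouse, but no member was called by limma, 0 lower against 0.0943% of all named genes and 0 higher against 0.089%. Jchain had a difference of 0.85 (SE 0.29, limma adjusted p = 0.23), Tnfrsf17 of 1.15 (SE 0.40, adjusted p = 0.234) and Mzb1 of 1.16 (SE 0.46, adjusted p = 0.295). In all, 11 members (35.5%) were above without overlap, Cd79b, Btk, Fcrla, Irf4, Prdm1, Tnfrsf13b, Tnfrsf13c, Tnfrsf17, Jchain, Mzb1 and Sdc1, against 9.75% of genes, and 0 were below, against 7.47%. After normexp correction Btk, Fcrla, Irf4, Prdm1 and Tnfrsf13b of these 11 had negative differences. At an unadjusted limma p under 0.05 there were 7 members (22.6%), Fcrla, Irf4, Prdm1, Tnfrsf13b, Tnfrsf17, Jchain and Mzb1, against 15.1% of genes. By Student's t-test 6 passed at an unadjusted p (19.4%, against 1.59% of genes) and 0 after Benjamini-Hochberg adjustment.

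The members' median difference under DEX was 0.56 (4 negative, 27 positive) against 0.02 over all named genes, and it became -0.12 (18 negative, 13 positive) after normexp correction, where all genes had -0.18. After normexp correction Jchain, Mzb1, Tnfrsf17, Derl3 and Cd79b were still higher, by 1.08, 1.10, 0.75, 0.47 and 1.08, while Irf4, Prdm1 and Tnfrsf13b had -0.26, -0.12 and -0.37. Without GR iKO DEX mouse 1 the members' median was 0.24.

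The difference between the DEX responses, GR iKO minus Flox, asks whether the response depends on epithelial GR. No member was called by limma: 0 lower against 0.0681% of all named genes and 0 higher against 0.178%. At an unadjusted limma p under 0.05 there were 6 members (19.4%), Cd72, Irf4, Tnfrsf13b, Tnfrsf17, Jchain and Mzb1, against 12.7% of genes. Tnfrsf13b is one of the dim probes on rows 355 to 532, which had a median of 0.54 for this difference. Its value was 1.60, or 1.09 with quantile normalization within parts (limma adjusted p = 0.292 and 0.477). After normexp correction the direction of Tnfrsf13b turned, with a value of -0.15. Student's t-test compares pairs of groups and gives no value here. So Irf4, called in Flox mice with -1.75 and not in GR iKO mice with -0.19, had a difference of 1.56 (SE 0.51, limma adjusted p = 0.234), and is not shown to respond differently. After normexp correction the difference of Irf4 was 0.10. Cd72, with -0.14 and -1.31, had a difference of -1.16 (SE 0.38, adjusted p = 0.231) and Cd22 of -1.36 (adjusted p = 0.62). The other probe of Cd72 changed by -0.975 in Flox mice (limma adjusted p = 0.19) and -2.13 in GR iKO mice. Its difference was -1.16 (limma adjusted p = 0.424).

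By role, the plasma cell secretion genes had a median difference of 1.14 (5 of 5 positive, also after normexp correction), and the coreceptors of -0.69 (8 of 9 negative). Jchain had -0.67 in Flox and 0.63 in GR iKO mice, a difference of 1.297 (SE 0.41, limma adjusted p = 0.214). Tnfrsf17 had -1.11 and 0.47, a difference of 1.58 (SE 0.56, adjusted p = 0.274). The other probe of Jchain had a difference of 1.48 (adjusted p = 0.277). Over all members the median was -0.02, with 16 negative and 15 positive, against 0.003 over all named genes, and after normexp correction it was -0.38 where all genes had -0.17. The 5 comparisons share groups of mice, so their values are not independent of each other.

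In the lists of other genes below, a gene counts as on the array when its accession was matched to a symbol. A gene named under a single genotype can have changed alike in the other without being called. Of all named genes, 1.17% were called lower and 0.995% higher with DEX in Flox mice, and 1.1% and 4.1% in GR iKO mice. Beyond the members, 35 other B cell and germinal centre genes were on the array. In Flox mice their median change with DEX was -0.44, with 2 of 35 called lower and 0 higher. Cd74, the invariant chain of antigen presentation, was among those called lower, with -1.57 (limma adjusted p = 0.0428). The median became 0.16 after normexp correction. In GR iKO mice 3 of 35 were called lower and 0 higher, with a median of -0.50: the adaptor Stap1 with -2.16 (adjusted p = 0.0142), H2-DMb2, a chain of an antigen-loading molecule, with -3.02 (adjusted p = 0.0472) and the inhibitory receptor Siglecg with -1.04 (adjusted p = 0.0484). The size of the change is uncertain for Stap1 and H2-DMb2, each well above background on just 1 of the 4 GR iKO DEX arrays. Between genotypes and for the difference 0 were called. At an unadjusted limma p under 0.05 these were 6 of 35 under PBS, 7 under DEX and 2 for the difference. The shares of all named genes were 7.72%, 15.1% and 12.7%. Cd24a was the brightest, with group means from 4.76 to 5.38.

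Of 22 other plasma cell and immunoglobulin secretion genes, 16 could be named on the array, and these were well above background on every array. None was called by limma in any comparison (0 of 16), with 2, 3, 3, 4 and 3 at an unadjusted p under 0.05 for DEX in Flox mice, DEX in GR iKO mice, genotype under PBS, genotype under DEX and the difference. All named genes had shares of 21.6%, 28.6%, 7.72%, 15.1% and 12.7% in the same order. Their medians were 0.04 and 0.13 with DEX in Flox and GR iKO mice, the first -0.04 after normexp correction. Between the genotypes their medians were -0.14 under PBS (14 negative, 2 positive) and -0.04 under DEX (10 negative, 6 positive). These genes serve secretion in many cell types, goblet cells included, and Hsp90b1 was the brightest, with group means from 5.49 to 5.64.

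Of 24 ligands and homing genes of the B cell niche, 23 were on the array. With DEX in Flox mice 3 of 23 were called lower and 0 higher (median -0.44, but 0.02 after normexp correction). Cxcl12, which retains B and plasma cells in tissue, fell by 1.39 (limma adjusted p = 0.00956), Tnfsf13b, which encodes BAFF itself, by 1.00 (adjusted p = 0.0108), and the integrin chain Itgb7 by 1.11 (adjusted p = 0.0495). With DEX in GR iKO mice 3 of 23 were called lower and 0 higher (median -0.44). They were Ccl19, Lta and the Cxcr5 ligand Cxcl13, which fell by 1.55, 1.47 and 1.55 (adjusted p = 0.0321, 0.0332 and 0.0439). Without the 2-fold minimum 5 of 23 had a limma adjusted p under 0.05 in GR iKO mice. The mean of Cxcl12 there went from 0.71 to -0.28, of Tnfsf13b from -0.38 to -0.88 and of Itgb7 from 0.41 to -0.03. In Flox mice the mean of Ccl19 went from -1.37 to -1.77 and of Lta from -4.745 to -5.28. Cxcl13, shown for each mouse after its values were seen, read -0.77, -0.45, -1.85 and -0.72 under PBS and -1.42, -0.84 and -1.91 under DEX in Flox mice, and 0.25, 0.30 and 0.67 under PBS and 0.07, -1.28, -1.88 and -1.49 under DEX in GR iKO mice. It was higher in each GR iKO mouse given PBS than in any mouse of the other groups. Ltbr was the brightest, with group means from 3.65 to 3.91. Between genotypes and for the difference 0 of 23 were called, with 5, 5 and 2 at an unadjusted limma p under 0.05, against 7.72%, 15.1% and 12.7% of all named genes. The APRIL gene Tnfsf13 was not analysed here.

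Markers of other cells were read on the same arrays, and their part in the members' values was not tested. For lymphoid stroma, 7 of 8 markers were on the array, 5 of them well above background on every array. Their mean signal was -2.55, -2.26, -2.50 and -1.999 under PBS and -2.82, -2.79 and -3.36 under DEX in Flox mice, and -2.09, -1.25 and -1.01 under PBS and -2.11, -3.01, -2.74 and -2.53 under DEX in GR iKO mice. It was highest in GR iKO PBS mice 3 and 4, the mice in which most B cell members were highest. Ccl21a, its brightest gene, fell with DEX in both genotypes, by 1.55 and 1.37 (limma adjusted p = 0.0122 and 0.00945), and Ccl19 and Cxcl13, which are also on the niche list, were called in GR iKO mice as above. Among 7 follicle epithelium and M cell markers Tnfaip2 fell in Flox mice by 1.15 (adjusted p = 0.0169), and the brightest was Pglyrp1, with group means from 3.53 to 3.72.

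T cell markers (11 of 12 on the array, 8 of them well above background on every array) had a mean signal of -4.16, -3.60, -3.80 and -3.64 under PBS and -4.09, -4.09 and -4.21 under DEX in Flox mice, and -3.18, -3.64 and -3.19 under PBS and -3.66, -3.72, -4.05 and -3.57 under DEX in GR iKO mice. In GR iKO mice Cd8a fell by 1.81 and Cd3g by 1.17 with DEX (limma adjusted p = 0.0172 and 0.0257), and Lck was the brightest gene, at -1.66 to -1.04 as group means. In Flox mice the mean of Cd8a went from -4.33 to -5.415 and that of Cd3g from -3.77 to -4.64, neither called. Of the 11 markers, 3 had positive changes with DEX in GR iKO mice and 4 in Flox mice, Cd3e and Cd4 among them in each genotype. The mean of Cd3e was -3.27 under PBS and -2.41 under DEX in GR iKO mice, and -3.57 and -2.65 in Flox mice. Unlike the B cell members, the T cell markers had a mean as high in GR iKO PBS mouse 2 as in mouse 4. All 10 macrophage markers were well above background on every array, with a mean of -0.42, 0.26, 0.54 and 0.13 under PBS and -0.53, -0.32 and -0.80 under DEX in Flox mice, and 0.26, -0.27 and 0.40 under PBS and -0.13, -0.40, -0.59 and -0.23 under DEX in GR iKO mice. Fcgr1 and Lyz2 fell with DEX in each genotype, in Flox mice by 1.83 and 1.37 (adjusted p = 0.0124 and 0.039) and in GR iKO mice by 1.55 and 1.26 (adjusted p = 0.0109 and 0.026). Cd163 rose by 1.26 in GR iKO mice (adjusted p = 0.00848). In Flox mice its mean also rose, from -1.36 under PBS to -0.36 under DEX, without being called. Cd14, the brightest, had group means from 1.85 to 2.30.

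Dendritic cell markers (7 genes, 5 well above background on every array) had a mean of -3.89, -3.56, -3.32 and -3.47 under PBS and -4.07, -4.17 and -4.25 under DEX in Flox mice, and -3.33, -3.54 and -3.44 under PBS and -3.79, -3.93, -3.96 and -4.23 under DEX in GR iKO mice. Itgax, the brightest, fell with DEX by 1.37 and 1.24 in Flox and GR iKO mice (limma adjusted p = 0.0109 and 0.00766), Batf3 in Flox mice fell by 1.16 (adjusted p = 0.019), and Clec9a was at least 1.06-fold lower in GR iKO mice (adjusted p = 0.0466), a bound set by a group with no array well above background. Neither was called in the other genotype. There the mean of Batf3 went from -0.755 to -1.65 in GR iKO mice. That of Clec9a, well above background on 0 Flox DEX arrays, went from -5.98 to -7.23 in Flox mice. The mean of the epithelial markers lay from 6.46 to 6.77 over the mice, with no value of Muc2 for GR iKO DEX mouse 2, single markers differed more, and Krt8 was the brightest. The 6 smooth muscle markers, Cnn1 the brightest, had means of 5.24, 5.61, 5.52 and 5.42 under PBS and 6.02, 5.92 and 6.37 under DEX in Flox mice, and 5.95, 5.73 and 5.59 under PBS and 5.47, 6.21, 6.17 and 6.10 under DEX in GR iKO mice. Every Flox mouse given DEX was above any Flox mouse given PBS.

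Exocrine pancreas markers (9 of 9 on the array) had means of -3.99, 5.43, -0.62 and -4.05 under PBS and 7.42, 7.65 and -3.10 under DEX in Flox mice, and -4.05, -4.08 and -3.74 under PBS and -3.33, 4.02, -3.59 and 3.06 under DEX in GR iKO mice. They were high in Flox PBS mouse 2, Flox DEX mice 1 and 2 and GR iKO DEX mice 2 and 4. Cela1 was the brightest. The 3 red blood cell markers on the array, of 4, Hba-a1 the brightest, had means from -1.88 to -0.07, the highest in GR iKO DEX mouse 1, where Hba-a1 was 3.98, against at most 3.00 in the other mice. Of the glucocorticoid control genes 6 of 7 were on the array, Sgk1 the brightest, with 4 called higher with DEX in Flox mice. In GR iKO mice 2 were, Tsc22d3 and Pdk4, the second by 3.49 (limma adjusted p = 0.000641). Under DEX, 3 were called lower for the GR iKO genotype, Nr3c1, Sgk1 by 2.56 and Fkbp5 by 2.17 (adjusted p = 0.00909 and 0.0273), and Sgk1 and Fkbp5 were also called for the difference between the responses (adjusted p = 0.0436 and 0.0436).

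The median log2 changes of these lists with DEX, Flox first and GR iKO next, were -0.41 and -1.55 for lymphoid stroma, -0.12 and -0.05 for follicle epithelium, -0.51 and -0.62 for T cells, -0.67 and -0.59 for macrophages, -0.54 and -0.47 for dendritic cells, 0.005 and 0.04 for epithelium, 0.62 and 0.21 for smooth muscle, 5.11 and 4.49 for exocrine pancreas and -0.09 and 0.57 for red blood cells, beside 0.04 and 0.04 over all named genes. After normexp correction the sign turned in Flox mice for follicle epithelium (0.08), T cells (0.47), dendritic cells (0.53), epithelium (-0.24) and red blood cells (0.32), and in GR iKO mice for dendritic cells (0.07) and epithelium (-0.01). No gene of these 9 lists was called between the genotypes or for the difference. Between the genotypes, under PBS and under DEX, the medians were 1.35 and 0.27 for lymphoid stroma, 0.53 and 0.34 for T cells, 0.005 and 0.20 for macrophages and 0.12 and 0.37 for dendritic cells, beside 0.43 and 0.56 for the members. After normexp correction the sign turned under PBS for macrophages (-0.04) and dendritic cells (-0.10) and under DEX for lymphoid stroma (-0.04), T cells (-0.52), dendritic cells (-0.57) and the members (-0.12).

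**Figure D4:**
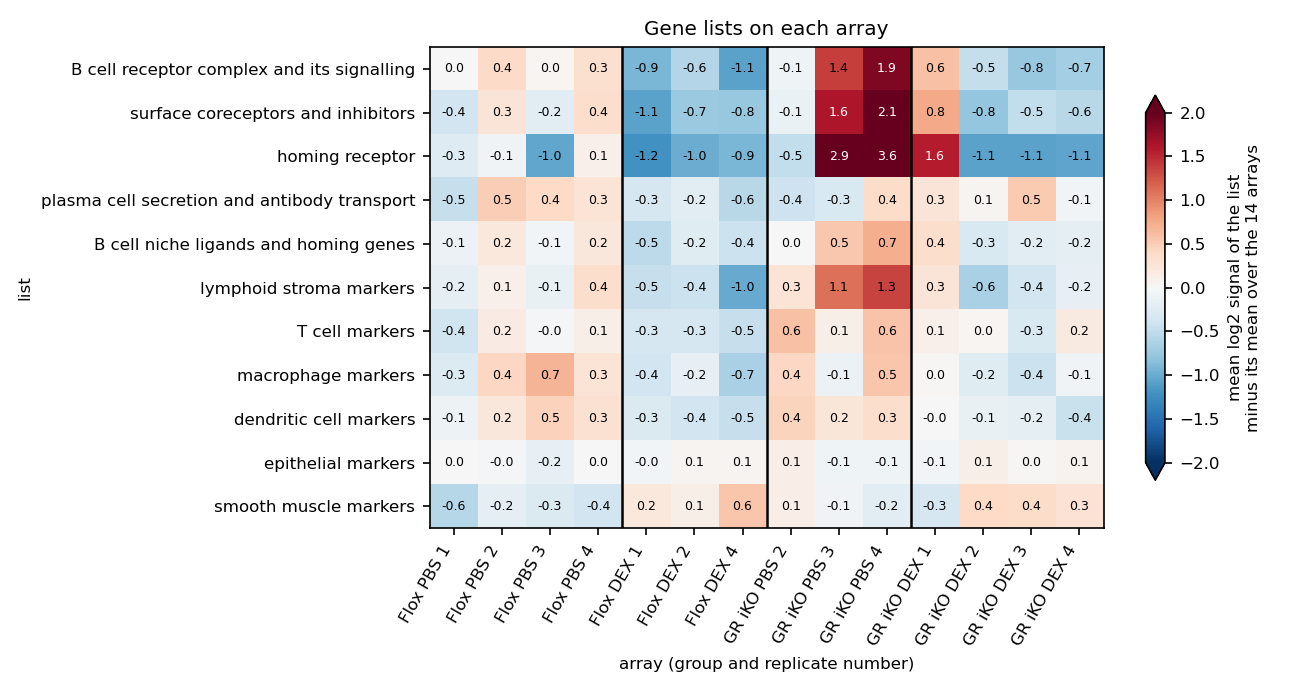
Mean log2 signal of 11 gene lists on the 14 arrays, minus the mean of the list over the arrays, with the value in each cell. The B cell receptor genes, the coreceptors, Cxcr5 and the lymphoid stroma markers are highest in GR iKO PBS mice 3 and 4.

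Genes outside the members were ranked by the Pearson r of their signal, over the 14 mice, with the mean of Cd79a, Cd79b, Ms4a1, Cd22 and Cd37. The mice fall into the 4 groups and share slides within a group, so r is given as a description. Among the 10 closest were Ccr6, a chemokine receptor of B and T cells (r = 0.989, rho = 0.965), Lta (0.977, 0.965), Ccl19 (0.968, 0.89) and Ltb (0.964, 0.886). Il4i1, Fcmr, Hvcn1, Serpina1d and Vpreb3 had lower values, with r from 0.945 to 0.953 (rho from 0.736 to 0.93, and r from 0.776 to 0.853 without the 2 mice named next). Without GR iKO PBS mice 3 and 4, the mice farthest from the median of that mean, r was 0.968 for Ccr6, 0.923 for Lta, 0.889 for Ccl19 and 0.885 for Ltb. Ccr6 read -2.83, -2.62, -3.11 and -2.32 under PBS and -3.35, -3.21 and -3.26 under DEX in Flox mice, and -2.76, -1.01 and -0.46 under PBS and -1.92, -3.01, -3.01 and -3.17 under DEX in GR iKO mice. It was highest in GR iKO PBS mice 3 and 4 and in GR iKO DEX mouse 1. After the group means were subtracted, the 10 closest included Ccr6 (r = 0.983), Lta, Ccl19, Hdc, Bfsp2, Fcmr, Chst3, Serpina1d and Gpr18 (r = 0.945), with rho from 0.842 to 0.96, and r from 0.871 to 0.961 without GR iKO PBS mouse 2 and GR iKO DEX mouse 1.

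Among the members themselves, those most like this mean that are not part of it were Tnfrsf13c (r = 0.977, rho = 0.916, and 0.921 without GR iKO PBS mice 3 and 4) and Cxcr5 (r = 0.977, rho = 0.864, and 0.913 without them), over the same 14 mice. Of the plasma cell members, Tnfrsf17, Mzb1, Tnfrsf13b and Derl3 followed Jchain. With Jchain, r was 0.955 for Tnfrsf17 (rho = 0.965), 0.909 for Mzb1 (rho = 0.83), 0.891 for Tnfrsf13b (rho = 0.815) and 0.873 for Derl3 (rho = 0.868), and without GR iKO PBS mouse 3 and Flox DEX mouse 1, the mice farthest from the median of Jchain, it was 0.95, 0.94, 0.925 and 0.937. The r of these 4 with the B cell mean was 0.283, 0.428, 0.306 and 0.161 (rho = 0.354, 0.582, 0.354 and 0.314), and 0.6, 0.536, 0.49 and 0.419 without GR iKO PBS mice 3 and 4. Sdc1 did not follow Jchain (r = 0.173, rho = 0.314, and 0.521 without those mice) and had r = 0.868 to the B cell mean (rho = 0.723, and 0.578 without GR iKO PBS mice 3 and 4). Pigr and Prdm1 had r = 0.494 and 0.583 to Jchain (rho = 0.582 and 0.6, and 0.53 and 0.521 without those mice). Irf4 had r = 0.645 to the B cell mean (rho = 0.793, and 0.731 without GR iKO PBS mice 3 and 4) and 0.608 to Jchain (rho = 0.604, and 0.655 without GR iKO PBS mouse 3 and Flox DEX mouse 1), and after the group means were subtracted 0.92 and 0.599. Cr2 by its brightest probe followed neither (r = -0.064 and -0.183, rho = -0.108 and -0.191, and r = -0.424 and -0.31 without those mice). Pax5 had r = -0.26 and 0.453 (rho = -0.073 and 0.301, and r = 0.255 and 0.061 without those mice). Blnk had r = 0.518 to the B cell mean (rho = 0.653), 0.241 without GR iKO PBS mice 3 and 4, and 0.062 after the group means were subtracted. Cd79a, which is part of that mean, had r = 0.789 (rho = 0.49), and 0.081 without GR iKO PBS mice 3 and 4.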

How the data were processed

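The authors deposited scanner files of intensity, background-subtracted by Agilent Feature Extraction 12.0.0.7, and a table of log2 values, whose columns are quantile normalized by their values, and they name Partek 6.6. Here log2 intensity minus log2 of the array's 75th percentile was used, with their table as an alternative. Outlier spots were left out and 245 repeated probes averaged. Of 41174 probes 28223 could be named, for 19096 genes. In R 4.3.3, limma 3.58.1 fitted the 4 group means to all probes. Calls require a Benjamini-Hochberg adjusted p below 0.05 together with a 2-fold change. Normexp (offset 50) used median signals, since the files hold no mean signal. Values in each mouse are given for called members and for the widest and narrowest of each role group; other lists give called genes, at most the 3 of lowest adjusted p in each direction, and the brightest. Nr3c1, Sgk1, Fkbp5 and Tsc22d3 are checks. Cd79b, Jchain, Cxcl13 and Ccr6 were added after their values were seen. Some genes of the lists are not reported here. Members and lists were chosen with earlier results of these data known. All members but Blk and Fcer2a passed a filter on dim probes. Groups come from sample titles, because the labels' treatment text mentions DEX for PBS mice too.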

Additional observations from a re-analysis of the deposited data

Results flagged for a closer look

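In 8 cases the highest or lowest of the 4 mice of a Flox PBS or GR iKO DEX group lay far from the other 3, by the Dixon rule at a level of 1 in 20. Chance marks about 1 in 20 groups, or 3.1 of the 62 tested. In Flox PBS mice, Cd79a read -4.66 for mouse 3, where the others read -4.31 to -4.28, and Blnk read 6.22 for mouse 3, where the others read 6.04 to 6.04. Fcrla read -4.51 for mouse 1, where the others read -3.21 to -2.99, and Jchain read 5.27 for mouse 1, where the others read 6.20 to 6.38. In the GR iKO mice given DEX, Bank1 read -3.90 for mouse 1, where the others read -7.74 to -7.08. Ms4a1 read -0.21 for mouse 1, where the others read -5.43 to -4.81, Cxcr5 read -1.93 for mouse 1, where the others read -4.57 to -4.55, and Tnfrsf13b read -4.61 for mouse 4, where the others read -4.13 to -4.04. Mouse 1 of this group is thus the one for Bank1, Ms4a1 and Cxcr5. No explanation of these single mice was tested.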

How the results depend on the processing

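The Irf4 value kept its direction under all settings, from -1.88 to -0.13, and was called in 8 of 14 fits with 1 array left out and in 12 of 15 other settings. Among fits without a Flox array, only that without Flox PBS mouse 1 kept the call. The rest of the 8 left out a GR iKO array, which enters through the pooled spread alone. Some of the 15 settings could not lose it, such as no fold minimum, and the authors' table and quantile normalization are nearly the same values. These tallies do not measure independent repeats. Cd72 was called in 14 of 14 and 11 of 15, Bank1 in 10 of 14 and 9 of 15, and Cd22 in 2 of 14 and 8 of 15, none with its direction turned. The number of members called with DEX in Flox mice was 1. It became 0 with normexp correction (0.241% of all named genes called in either direction, against 2.16%), 2 (against 1.78% of genes) with only the groups compared, 7 with the unadjusted Student's t-test (4.54% of genes), 0 with its adjusted form (0%), and 4 (2.78% of genes) with GR iKO PBS mice 3 and 4 and GR iKO DEX mouse 1 left out, a setting chosen after seeing the data. For DEX in GR iKO mice it was 3, and it became 5 (Cd79a and Ebf1 added) with the authors' log2 table and with quantile normalization (4.83% and 4.82% of genes, against 5.2%), 0 with normexp correction (0.183%), 1 with only the groups compared (3.96%), 0 with the adjusted t-test (1.76%), and 0 (2.07% and 1.02%) in both settings chosen after seeing the data. For the genotypes it was 0, and became 1 under PBS and 6 under DEX with the unadjusted t-test (1.67% and 1.59% of genes), and 1 (Irf4 lower, 1.58% of genes) under PBS with the 3 mice left out. For the difference it was 0, and became 1, Irf4, (0.733% and 0.361% of genes, against 0.246%) in both settings chosen after seeing the data, in which GR iKO PBS holds 1 mouse and the other groups supply the spread. With 1 array left out, these numbers lay between 0 and 4 for the Flox response, 1 and 14 for the GR iKO response, 0 and 3 under PBS, and stayed at 0 under DEX and for the difference.

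The members' median changes moved by more than the spread of their mean between replicates in these cases. With normexp correction the median with DEX in Flox mice was 0.14 and that between genotypes under DEX -0.12. With GR iKO PBS mice 3 and 4 left out, mice picked for their high values, which leaves 1 mouse in the group and so lowers its level by choice, it was 0.091 with DEX in GR iKO mice, -0.34 between genotypes under PBS and 0.73 for the difference, and with GR iKO DEX mouse 1 left out as well, 0.032 and -0.34 for the first pair. With 1 array left out the medians lay from -0.88 to -0.56 with DEX in Flox mice, -0.85 to -0.35 with DEX in GR iKO mice, 0.21 to 0.56 under PBS, 0.24 to 0.65 under DEX and -0.29 to 0.22 for the difference. Except where fewer mice or other genes entered by construction, the cause was not tested.

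With a replicate block, mice of the same replicate number treated as related, the number called with DEX in Flox mice was 0 (Irf4 lost, 1.39% of genes called) and in GR iKO mice 2 (Cd22 lost, 4.32%). After subtracting group means, pairs of mice with the same number had a median r of 0.049 (-0.126 to 0.204, 18 pairs) and pairs with other numbers -0.012 (55 pairs), and the main fit takes the mice as unpaired. Signal over background limits Blk, Fcer2a and Bank1, which were well above background on 4, 6 and 8 of 14 arrays.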
